A study of Homo sapiens with 18 samples.

Results

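Aminoacyl-tRNA synthetases join each amino acid to its transfer RNA, and 36 genes of the family were followed here out of 62649 gene IDs in the count tables. The members were fixed as a list of symbols, and each symbol matched a single Ensembl ID. The list held 20 genes for enzymes of the cytosol and 16 for enzymes of mitochondria. GARS1 and KARS1 each make both forms from a single gene and were counted as cytosolic. Cells of a pair of human lung epithelial lines, both labelled wild type, had been exposed at the air-liquid interface, that is, with their upper surface open to the gas. A549 came from an alveolar carcinoma; BEAS-2B cells are bronchial and immortalised. Cells on 24 mm inserts, seeded 24 h earlier at 400000 (A549) or 500000 (BEAS-2B) cells each, spent 4 h under complete wood smoke, under filtered smoke or under clean air. The gas flowed at 100 mL/min with a humidity of 85%. Each of the 6 groups had 3 RNA-seq libraries, 18 in all. Within a line the labels of the 3 groups differ in the gas alone: complete smoke is the whole aerosol, filtered smoke the aerosol after filtration, and clean air the control. The lines also differ in medium, KGM for BEAS-2B and RPMI for A549. No label says that the libraries of a group came from separate cultures, so each p-value reflects how far the samples of a group differ, and that spread may be technical.

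Libraries held 14438397 to 21432089 gene counts in A549 and 28532235 to 55032499 in BEAS-2B. Levels are given in CPM, the usual share of a library's counts, scaled by the trimmed mean of M values (TMM) within each line. All 6 epithelial marker genes reached 1 CPM in every library of both lines, with sums of 9738 to 16376 CPM (complete), 10689 to 19900.2 CPM (filtered) and 7813 to 10019.9 CPM (clean air) in A549 and 6079 to 16486, 8191 to 16439 and 2841 to 7712 CPM in BEAS-2B. All 5 basal or bronchial markers did so in BEAS-2B, against 1 of 5 in A549. Only 4 of 8 A549 markers reached that level in A549, against 1 of 8 in BEAS-2B, and NKX2-1 stayed at or below 0.0568 CPM in A549. Of 13 markers of fibroblast, endothelial, immune and red cells, CD3E was at 0 in every library. Their summed level was 12.5 to 26.02 CPM (complete), 10.3 to 16.95 CPM (filtered) and 29.5 to 50.4 CPM (clean air) in A549. In BEAS-2B it was 186 to 389.9 CPM, 291 to 411 CPM and 453 to 764 CPM in the same order, carried by COL1A1 at 179.7 to 735 CPM. The part of these markers in the results was not tested. In BEAS-2B, complete smoke 3 and clean air 1 stood apart, and filtered smoke 3 to a lesser degree. Complete smoke 3 had 31.7% multimapping reads and filtered smoke 3 had 19.2%, against 7.69 to 12.9% in the other BEAS-2B libraries. Reads on no feature made 12.6% of uniquely mapped reads in complete smoke 3, against 1.09 to 6.41% in the other BEAS-2B libraries. Clean air 1 had a TMM factor of 1.14, against 1.48 and 1.52 in the other clean air libraries.

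As background, a synthetase first activates its amino acid with ATP and then passes it to the matching transfer RNA, and the family falls into class I and class II by the fold of the catalytic site. Several cytosolic enzymes sit with 3 scaffold proteins in the multisynthetase complex; of the members, EPRS1, IARS1, KARS1, LARS1, MARS1, QARS1 and RARS1 belong to it. Mitochondria use a separate nuclear-encoded set for the few proteins that their own genome encodes. Uncharged transfer RNA activates the kinase GCN2, which leads to translation of the transcription factor ATF4, and many cytosolic synthetase genes are known ATF4 targets.

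Promoter sequences are shown first because ATF4 is the known regulator of many members. RefSeq promoters (GRCh38.p14; 250 bases before to 50 after a gene start) were at hand for 30 of the 36 members, 16 cytosolic and 14 mitochondrial. The composite element bound by ATF4 with C/EBP partners was searched as TGATGNAA on both strands. It occurred in 7 of the 16 cytosolic genes (AARS1, CARS1, GARS1, IARS1, MARS1, NARS1 and TARS1) and in 1 of the 14 mitochondrial genes (YARS2), against 4.46% of all 27305 genes with a promoter in the table (counted, as for the members, where any promoter of the gene holds a match). The sequences below are written 5′ to 3′ on the gene's strand with the match in capitals. The match reads TTGCATCA or TTTCATCA where it lies on the other strand. The last 6 bases of the CARS1 match and the last 4 of the MARS1 match lie past the gene start. The NARS1 and TARS1 matches lie wholly past a gene start and are not printed.
AARS1 (chr16:70289660-70289719, minus strand): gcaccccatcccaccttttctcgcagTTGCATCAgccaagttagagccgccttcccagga
CARS1 (chr11:3057418-3057451, minus strand): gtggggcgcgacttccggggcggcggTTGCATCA
GARS1 (chr7:30594819-30594877, plus strand): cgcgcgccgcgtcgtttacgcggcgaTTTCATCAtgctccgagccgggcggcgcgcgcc
IARS1 (chr9:92293698-92293736, minus strand): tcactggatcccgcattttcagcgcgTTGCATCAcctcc
MARS1 (chr12:57488038-57488071, plus strand): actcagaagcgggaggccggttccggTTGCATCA
YARS2 (chr12:32756061-32756120, minus strand): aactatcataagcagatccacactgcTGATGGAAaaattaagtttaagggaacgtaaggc
A palindromic E-box, searched as CACGTG, occurred in 1 of 16 cytosolic genes (IARS1) and 3 of 14 mitochondrial genes (CARS2, EARS2 and MARS2), against 8.77% of all genes. An NRF1-type palindrome occurred in 3 of 16 cytosolic genes (FARSB, SARS1 and TARS1) and 3 of 14 mitochondrial genes (IARS2, MARS2 and PARS2), against 6.98%. Among the 7 cytosolic genes with the ATF4-type match, MARS1 passed the test described below, in BEAS-2B with both kinds of smoke, and YARS2 passed there too. With the replicate block, AARS1 and GARS1 were also higher and NARS1 lower with filtered smoke in BEAS-2B. A match is a string of letters and not a measured binding site. HARS1 and HARS2, for the cytosolic and the mitochondrial histidyl enzyme, face away from each other, and their RefSeq starts lie only 84 bases apart, and that stretch is shown because both genes start from it.
HARS1 and HARS2, between the starts (chr5:140691371-140691454, plus strand): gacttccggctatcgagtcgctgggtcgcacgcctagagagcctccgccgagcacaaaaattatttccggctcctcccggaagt

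Cytosolic enzymes were the more abundant transcripts. Divided by exonic length (union of exons, GENCODE v29, GRCh38), the median cytosolic gene stood at 30.0021, 30.5 and 25.7 CPM per kb with complete smoke, filtered smoke and clean air in A549. The median of the 14 mitochondrial genes with reads stood at 6.84, 7.02 and 5.80 CPM per kb in the same A549 groups. In BEAS-2B the cytosolic medians were 30.9, 31.4 and 26.1, and the mitochondrial ones 6.84, 7.28 and 4.77 CPM per kb. TARS3, a paralogue of the threonyl enzyme TARS1, was the lowest cytosolic gene in every group, at 0.749 to 2.80 CPM per kb over the group means. AARS1, the alanyl enzyme, led in A549 clean air at 71.8 ± 2.25 CPM per kb (SD, n = 3). KARS1, the lysyl enzyme, led the cytosolic genes in smoke-exposed A549, at 64.4 ± 13.1 (complete) and 69.7 ± 13.6 CPM per kb (filtered), and also in BEAS-2B clean air, at 52.0 ± 13.8. FARSA, the catalytic subunit of the phenylalanyl enzyme, led in smoke-exposed BEAS-2B at 115 ± 45.7 (complete) and 121 ± 37.1 CPM per kb (filtered). IARS2, the mitochondrial isoleucyl enzyme, was an abundant mitochondrial gene: at 50.3 ± 0.697 CPM per kb in A549 clean air it exceeded its cytosolic partner IARS1 at 47.3 ± 1.26. Among 11 amino acids with both partners measured, the cytosolic gene was the higher in 8, 9 and 9 of 11 in A549 with complete smoke, filtered smoke and clean air, and in 9, 9 and 11 of 11 in BEAS-2B. In the order of all 36 levels, the 3 library values of a gene overlapped those of the next gene in 31, 30 and 19 of 35 neighbouring pairs in A549 with complete smoke, filtered smoke and clean air, and in 26, 25 and 30 in BEAS-2B.

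**Figure D1:**
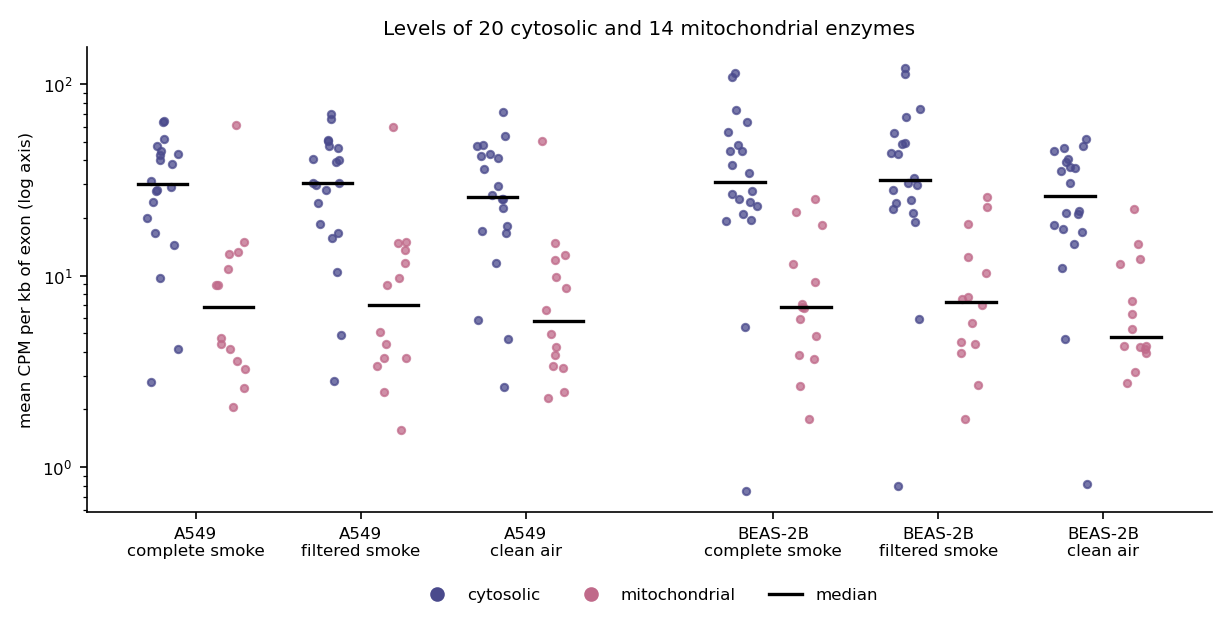
Mean CPM per kb of exon (log axis) of 20 cytosolic and 14 mitochondrial genes in each line and exposure; points are genes, black lines medians. The cytosolic medians lie between 25.7 and 31.4 CPM per kb and the mitochondrial ones between 4.77 and 7.28.

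SARS2 and VARS2, the mitochondrial seryl and valyl enzymes, gave almost no counts: 1 read for SARS2 in A549 filtered smoke 2, none in the other libraries, and none for VARS2 anywhere. In the annotation each shares its strand with an overlapping gene, AC011455.2 for SARS2 and GTF2H4 for VARS2, and the part of that overlap was not tested. Both fell under the filter on low counts, which the other 34 members (20 cytosolic, 14 mitochondrial) passed in both lines.

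With TMM scaling, a minority of the family stood higher with smoke than in clean air. In both lines these were the phenylalanyl (FARSA and FARSB), lysyl and glutaminyl enzymes of the cytosol, FARSA in A549 with filtered smoke only. The valyl, methionyl and seryl ones were higher in BEAS-2B, the histidyl one in A549 with filtered smoke, and a few mitochondrial ones as well. By library size alone fewer were higher in BEAS-2B, as given below. In A549, complete smoke left 3 of 20 cytosolic genes higher and 0 lower than clean air, and 1 of 14 mitochondrial genes higher and 0 lower (edgeR quasi-likelihood test, adjusted p under 0.05 over 15244 genes). Of all genes tested, 15.6% rose and 16.9% fell in that comparison. Filtered smoke in A549 left 5 cytosolic genes higher and 1 lower, and 2 mitochondrial genes higher and 1 lower, while 23.1% of all genes rose and 23.5% fell. In BEAS-2B, complete smoke left 7 cytosolic genes higher and 0 lower, and 2 mitochondrial genes higher and 1 lower, while 21.5% of 16356 genes rose and 19.5% fell. Filtered smoke in BEAS-2B left 7 cytosolic genes higher and 0 lower, and 3 mitochondrial genes higher and 0 lower, while 23.6% of all genes rose and 24.9% fell. The cytosolic share that rose was close to the share of all genes in A549, at 3 and 5 of 20, and above it in BEAS-2B, at 7 of 20 with each smoke without the replicate block. The mitochondrial share was 1, 2, 2 and 3 of 14, near or below the share of all genes. Leaving out a single library moved the cytosolic counts, higher and lower together, to 1 to 6 and 2 to 8 in A549 (complete, filtered) and 2 to 9 and 5 to 10 in BEAS-2B, and the mitochondrial ones to 0 to 3, 1 to 5, 1 to 3 and 1 to 4. The share of all genes that passed in those fits is not given here, so the movement is not read as a trait of the members. Of 33 called values of members, 13 passed in all 9 such fits of their line and 1, LARS2 with complete smoke in BEAS-2B, in none. The median cytosolic log2 fold change was 0.10 and 0.09 in A549 (complete, filtered) and 0.31 and 0.40 in BEAS-2B. For mitochondrial genes it was 0.06 and 0.04, then 0.21 and 0.23, and for all genes tested 0.02 and 0.0063, then -0.06 and -0.07. FARSB, KARS1 and QARS1 passed in each of the 4 comparisons, 15 of 34 members passed in at least 1, and 19 in none. The 2 smoke comparisons of a line share their clean air libraries. In whole-culture RNA, fewer cells and less RNA per cell cannot be told apart.

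**Figure D2:**
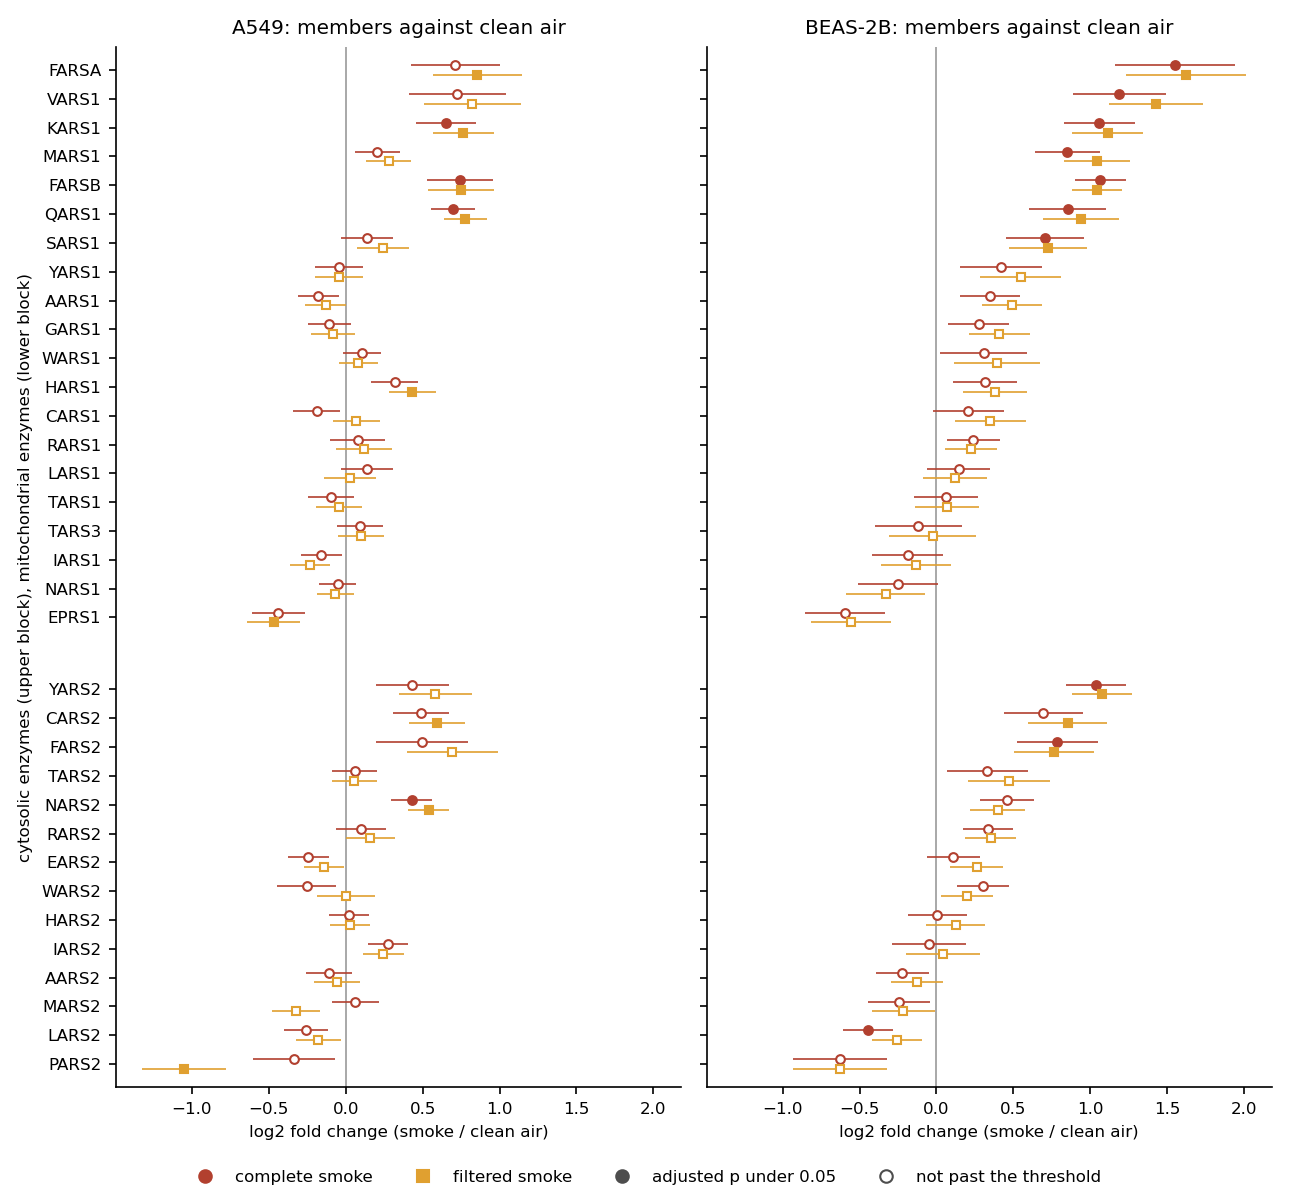
Log2 fold change of smoke over clean air (error bars SE) for 34 members in each line, cytosolic genes in the upper block and mitochondrial in the lower; filled symbols had an edgeR adjusted p under 0.05. FARSA has the highest value in BEAS-2B, 1.55 with complete and 1.62 with filtered smoke, and PARS2 the lowest in A549, -1.05 with filtered smoke.

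Libraries with the same number deviated together from their group means in A549, so the fit with the number as a block stands beside these. In BEAS-2B, clean air and filtered smoke of the same number correlated at 0.581, 0.159 and 0.571 (numbers 1, 2 and 3). Clean air 2 correlated more with filtered smoke 3 (0.434). Clean air and complete smoke gave 0.643, -0.134 and 0.652. The BEAS-2B block covers all 9 libraries, and its p-values rest on a pairing that number 2 does not bear out. In A549 it called 6 cytosolic genes higher and 1 lower, and 3 mitochondrial genes higher, with complete smoke, where 27.3% of all genes rose and 27.3% fell. With filtered smoke it called 6 and 1 cytosolic and 4 and 1 mitochondrial genes in A549, where 30.4% rose and 31.3% fell. In BEAS-2B with filtered smoke it called 12 cytosolic genes higher and 2 lower, and 6 mitochondrial genes higher and 1 lower, where 31.9% rose and 35% fell. There 12 of 20 cytosolic and 6 of 14 mitochondrial genes were above the share of all genes that rose. Without BEAS-2B complete smoke 3 and clean air 1, a choice made after seeing the data, 12 cytosolic and 4 mitochondrial genes were higher with complete smoke, 13 and 5 with filtered smoke, and 0 lower in either. In that fit 31.8% of all genes rose and 31.7% fell with complete smoke, and 32.1% rose and 31.3% fell with filtered smoke, so the share of all genes grew too.

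The phenylalanyl enzyme of the cytosol, built from the catalytic subunit FARSA and the subunit FARSB, rose in both lines. FARSA (ENSG00000179115, chr19:12922479-12934037) had 385, 291 and 163 CPM with complete smoke, 394, 274 and 217 CPM with filtered smoke and 139, 77.6 and 69.8 CPM in clean air in BEAS-2B. Every smoke library lay above every clean air library there, with complete smoke 3 the lowest of the exposed and clean air 1 the highest of the controls. Its log2 fold change in BEAS-2B was 1.55 ± 0.39 (SE, edgeR adjusted p = 0.0148) with complete and 1.62 ± 0.39 (edgeR adjusted p = 0.0114) with filtered smoke, the highest of the family in both. In A549 FARSA had 123, 119 and 72.7 CPM with complete smoke, 144, 136 and 67.6 CPM with filtered smoke and 72.9, 57.1 and 62.0 CPM in clean air. Library 3 of each smoke group lay within the clean air range, and the log2 fold change of 0.71 ± 0.29 with complete smoke missed the threshold (edgeR adjusted p = 0.0786; 0.0073 with the block) while 0.86 ± 0.29 with filtered smoke passed it (edgeR adjusted p = 0.0339).

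FARSB (ENSG00000116120, chr2:222570536-222656337) had 151, 153 and 145 CPM with complete smoke, 139, 145 and 159 CPM with filtered smoke and 79.9, 67.2 and 67.6 CPM in clean air in BEAS-2B. The exposed libraries lay close together and above all controls, at log2 fold changes of 1.07 ± 0.16 (edgeR adjusted p = 0.00296) and 1.04 ± 0.16 (edgeR adjusted p = 0.00333) for complete and filtered smoke. In A549 it had 107, 111 and 64.8 CPM with complete smoke, 110.5, 96.7 and 76.7 CPM with filtered smoke and 59.5, 57.5 and 52.1 CPM in clean air, again with no overlap and with library 3 the lowest of each smoke group. Its A549 log2 fold changes were 0.74 ± 0.22 (edgeR adjusted p = 0.0279) and 0.75 ± 0.22 (edgeR adjusted p = 0.0186).

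FARS2, the single-chain phenylalanyl enzyme of mitochondria, had 42.6, 31.9 and 28.8 CPM with complete smoke, 40.9, 30.3 and 30.5 CPM with filtered smoke and 26.8, 15.2 and 17.9 CPM in clean air in BEAS-2B, every exposed library above the controls. It rose there by 0.79 ± 0.26 (edgeR adjusted p = 0.0374) and 0.76 ± 0.26 (edgeR adjusted p = 0.0366) on the log2 scale. In A549 its log2 fold changes of 0.50 ± 0.30 and 0.69 ± 0.30 did not pass (edgeR adjusted p = 0.209 and 0.0773); the filtered one passed with the block (edgeR adjusted p = 0.0131).

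Among subunits of the multisynthetase complex, KARS1 and QARS1 rose in all 4 comparisons and EPRS1 fell in 1. Of the 7 complex genes, 2 rose and 0 fell with complete smoke in A549, and 2 rose and 1 fell with filtered smoke. In BEAS-2B 3 rose and 0 fell with each smoke. The shares of all genes in these comparisons are those given above for the family. KARS1 (ENSG00000065427, chr16:75627474-75648643), which makes the lysyl enzyme of both compartments, had 284, 301 and 201 CPM with complete smoke, 327, 301 and 221 CPM with filtered smoke and 183, 161 and 156 CPM in clean air in A549. Exposed libraries lay above all controls, with library 3 the lowest of each smoke group, and the log2 fold changes were 0.65 ± 0.20 (edgeR adjusted p = 0.0314) and 0.76 ± 0.20 (edgeR adjusted p = 0.0119). In BEAS-2B KARS1 had 486, 459.5 and 374 CPM with complete smoke, 488, 453 and 429.5 CPM with filtered smoke and 276, 181 and 177 CPM in clean air. Again no library overlapped, and the log2 fold changes were 1.06 ± 0.23 (edgeR adjusted p = 0.00883) and 1.11 ± 0.23 (edgeR adjusted p = 0.00707).

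QARS1 (ENSG00000172053, chr3:49095932-49105135), the glutaminyl enzyme, had 225, 244 and 204 CPM with complete smoke, 258, 247 and 207 CPM with filtered smoke and 138, 129.6 and 147 CPM in clean air in A549. The exposed and clean air libraries did not overlap, at log2 fold changes of 0.70 ± 0.14 (edgeR adjusted p = 0.00822) and 0.78 ± 0.14 (edgeR adjusted p = 0.00325), the lowest adjusted p of the family in that line. In BEAS-2B it had 336, 318 and 239 CPM with complete smoke, 328, 325 and 296 CPM with filtered smoke and 224, 142 and 128 CPM in clean air. Clean air 1 lay nearest the exposed libraries, and the log2 fold changes were 0.85 ± 0.25 (edgeR adjusted p = 0.0246) and 0.94 ± 0.25 (edgeR adjusted p = 0.0156).

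MARS1, the methionyl enzyme (ENSG00000166986, chr12:57475445-57517569), averaged 265 ± 50.3 CPM with complete smoke, 303 ± 26.02 CPM with filtered smoke and 147 ± 22.4 CPM in clean air in BEAS-2B (SD, n = 3 each). It rose there by 0.85 ± 0.21 (edgeR adjusted p = 0.014) and 1.05 ± 0.21 (edgeR adjusted p = 0.00669) on the log2 scale, and its A549 values of 0.20 ± 0.15 and 0.28 ± 0.15 did not pass (edgeR adjusted p = 0.292 and 0.138). DDIT3, a stress-response gene that rose in all 4 comparisons, overlaps MARS1 on the other strand. Reads on that strand came to 36.9 CPM (complete), 39.0 CPM (filtered) and 9.64 CPM (clean air) in BEAS-2B, and were not part of the MARS1 counts.

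EPRS1 (ENSG00000136628, chr1:219968601-220046658) makes the joined glutamyl and prolyl enzyme. In A549 it had 150.1, 162 and 197 CPM with complete smoke, 145, 146 and 208 CPM with filtered smoke and 225, 235 and 229.8 CPM in clean air. All exposed libraries lay below the controls, and its log2 fold change was -0.47 ± 0.17 with filtered smoke (edgeR adjusted p = 0.0472) and -0.44 ± 0.17 with complete smoke (edgeR adjusted p = 0.0729; 0.00847 with the block). In BEAS-2B it had 101, 145 and 148 CPM with complete smoke, 92.3, 141 and 172 CPM with filtered smoke and 173, 213 and 208 CPM in clean air, again with no overlap, at log2 fold changes of -0.59 ± 0.26 (edgeR adjusted p = 0.0901) and -0.55 ± 0.26 (edgeR adjusted p = 0.0995; 0.0035 with the block). The other complex subunits IARS1, LARS1 and RARS1 passed nowhere; their log2 fold changes lay between -0.23 (IARS1, A549 filtered) and 0.24 (RARS1, BEAS-2B complete).

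Of the 3 scaffold genes of the complex, which hold its enzymes together, 3 rose with complete and 2 with filtered smoke in BEAS-2B, 1 with complete and 2 with filtered smoke in A549, and 0 fell. Of all genes, 21.5% and 23.6% rose in BEAS-2B and 15.6% and 23.1% in A549 (complete, filtered). The block made the scaffold counts 3 with filtered smoke in BEAS-2B and 2 with complete smoke in A549, where AIMP2 was added (edgeR adjusted p = 0.0116 with the block). With the block, 31.9% and 27.3% of all genes rose in the same comparisons. AIMP2 had 270.4, 196 and 149.7 CPM with complete smoke, 252, 194 and 180.2 CPM with filtered smoke and 105, 54.7 and 50.7 CPM in clean air in BEAS-2B, at log2 fold changes of 1.55 ± 0.33 (edgeR adjusted p = 0.00855) and 1.58 ± 0.33 (edgeR adjusted p = 0.00762). EEF1E1, also known as AIMP3, rose by 1.42 ± 0.27 with complete smoke there (edgeR adjusted p = 0.00592), while its 0.68 ± 0.27 with filtered smoke did not pass (edgeR adjusted p = 0.0614; 0.00619 with the block). AIMP1 rose by 0.90 ± 0.17 and 0.71 ± 0.17 on the log2 scale (edgeR adjusted p = 0.00574 and 0.0117). In A549, EEF1E1 rose with both kinds of smoke, by 1.05 ± 0.24 and 1.06 ± 0.25 (edgeR adjusted p = 0.0135 and 0.0081), and AIMP2 with filtered smoke, by 0.71 ± 0.26 (edgeR adjusted p = 0.048).

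Outside the complex, VARS1 and SARS1 rose in BEAS-2B and HARS1 in A549. VARS1 (ENSG00000204394, chr6:31777518-31795953), the valyl enzyme, had 190.1, 174 and 92.6 CPM with complete smoke, 231, 179.6 and 129.9 CPM with filtered smoke and 69.6, 72.2 and 58.5 CPM in clean air in BEAS-2B. All exposed libraries exceeded the controls, with library 3 the lowest of each smoke group, at log2 fold changes of 1.19 ± 0.30 (edgeR adjusted p = 0.0157) and 1.43 ± 0.31 (edgeR adjusted p = 0.0079). In A549 VARS1 had 76.8, 61.7 and 38.6 CPM with complete smoke, 85.0, 68.4 and 36.1 CPM with filtered smoke and 38.9, 37.5 and 30.6 CPM in clean air. Libraries 1 and 2 of each smoke group lay above all controls and library 3 among them, and log2 fold changes of 0.72 ± 0.32 and 0.82 ± 0.32 missed the threshold (edgeR adjusted p = 0.0979 and 0.0546; 0.00345 and 0.00128 with the block).

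SARS1, the seryl enzyme (ENSG00000031698, chr1:109213918-109238169), had 324, 289 and 226 CPM with complete smoke, 295, 286 and 269 CPM with filtered smoke and 237, 140.4 and 137 CPM in clean air in BEAS-2B. Clean air 1 lay above complete smoke 3, and the log2 fold changes were 0.71 ± 0.25 (edgeR adjusted p = 0.0488) and 0.72 ± 0.25 (edgeR adjusted p = 0.04). In A549 its values of 0.14 ± 0.17 and 0.24 ± 0.17 did not pass (edgeR adjusted p = 0.542 and 0.254).

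**Figure D3:**
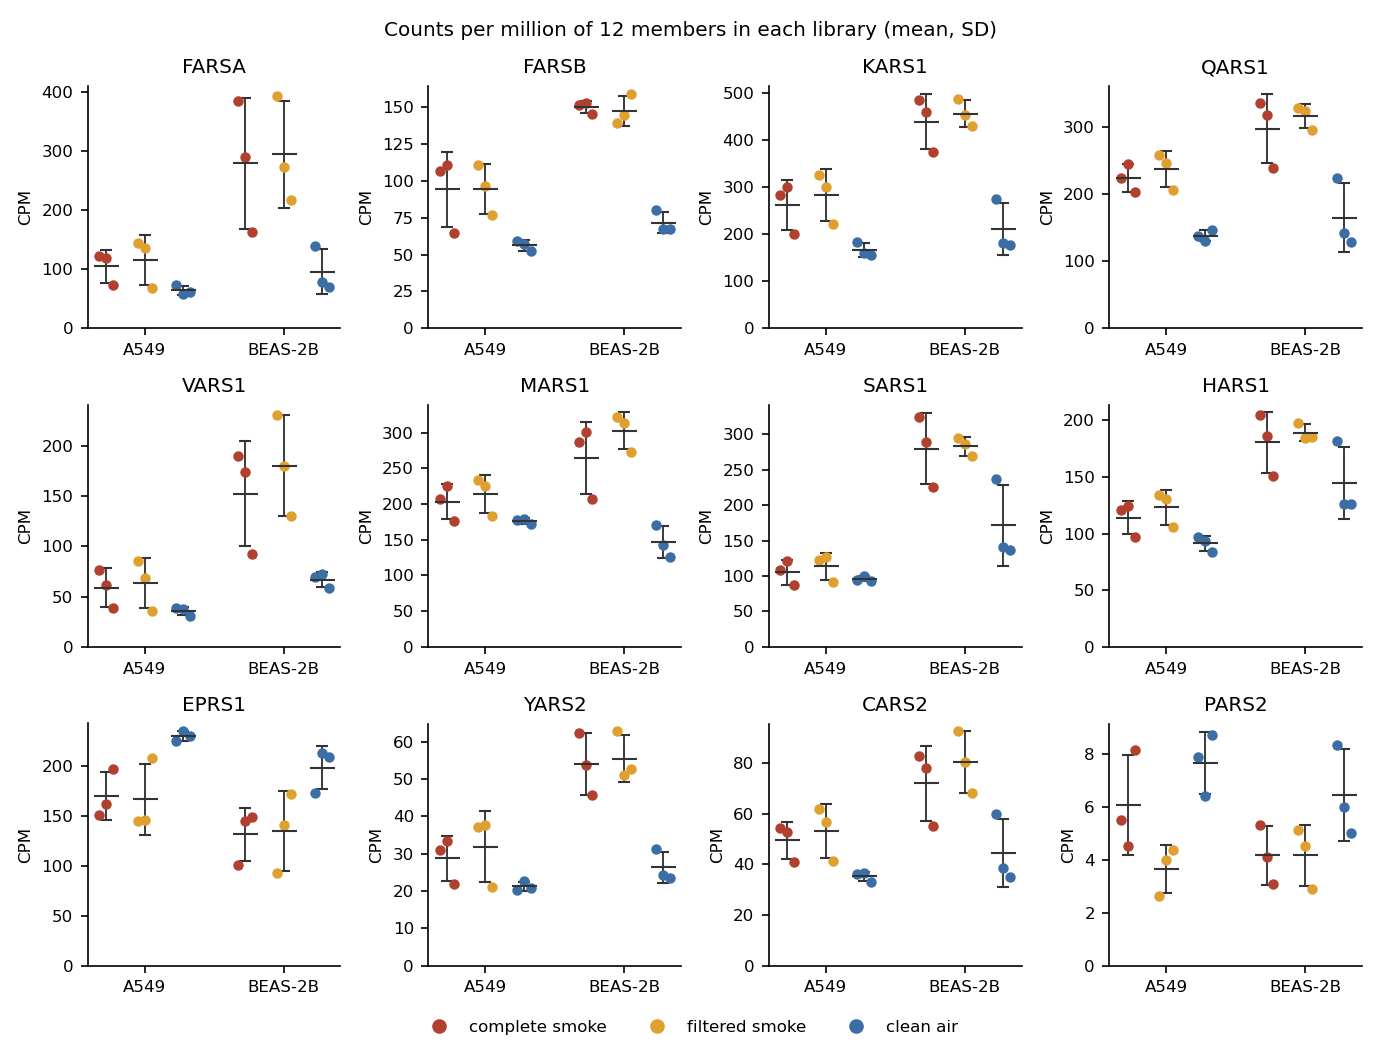
CPM of 12 members in each library, complete smoke, filtered smoke and clean air from left to right in each line; points are libraries 1, 2 and 3, bars mean and SD. In FARSA, FARSB, KARS1 and QARS1 the exposed BEAS-2B libraries all lie above the clean air ones, and in EPRS1 they all lie below.

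HARS1, whose start faces that of HARS2 across the 84 bases printed above, had 120.4, 124 and 97.0 CPM with complete smoke, 134, 130.1 and 106 CPM with filtered smoke and 96.9, 93.2 and 84.0 CPM in clean air in A549. Its exposed libraries lay above the controls, and the filtered smoke log2 fold change of 0.43 ± 0.15 passed (edgeR adjusted p = 0.04), while 0.32 ± 0.15 with complete smoke did not (edgeR adjusted p = 0.128; 0.0273 with the block). HARS2, which overlaps ZMAT2 on its own strand, had 58.8, 57.9 and 50.4 CPM with complete smoke, 59.6, 56.0 and 52.5 CPM with filtered smoke and 53.1, 56.1 and 55.5 CPM in clean air in A549, an overlapping set with log2 fold changes of 0.02 ± 0.13 and 0.03 ± 0.13 (edgeR adjusted p = 0.917 and 0.869). In BEAS-2B, HARS1 had 204, 186 and 151 CPM with complete smoke, 197, 184 and 185 CPM with filtered smoke and 182, 126 and 126 CPM in clean air. HARS2 had 40.9, 47.2 and 41.1 CPM with complete smoke, 38.1, 48.4 and 53.9 CPM with filtered smoke and 50.3, 39.0 and 39.4 CPM in clean air there, and neither gene passed in that line without the block. HARS1 stood at 0.32 ± 0.21 and 0.38 ± 0.21, HARS2 at 0.01 ± 0.19 and 0.13 ± 0.19 (edgeR adjusted p = 0.234, 0.147, 0.984 and 0.598). With the block, HARS1 was higher with filtered smoke in BEAS-2B (edgeR adjusted p = 0.0243). The ratio of HARS1 to HARS2 per kb of exon was 0.972 (complete), 1.05 (filtered) and 0.791 (clean air) in A549, and 1.99, 1.92 and 1.604 in BEAS-2B.

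GARS1, WARS1, TARS1 and TARS3 passed in no comparison without the block. GARS1, the glycyl enzyme of both compartments, had 173, 216 and 167 CPM with complete smoke, 174, 222 and 214 CPM with filtered smoke and 178, 147 and 134 CPM in clean air in BEAS-2B. Clean air 1 lay within the exposed range, and the log2 fold changes were 0.27 ± 0.20 and 0.41 ± 0.20 (edgeR adjusted p = 0.281 and 0.112; 0.0417 for filtered smoke with the block). In A549 GARS1 had 169, 187 and 142 CPM with complete smoke, 173, 172 and 161 CPM with filtered smoke and 166, 186 and 183 CPM in clean air, with log2 fold changes of -0.11 ± 0.14 and -0.08 ± 0.14 (edgeR adjusted p = 0.575 and 0.646).

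WARS1, the tryptophanyl enzyme, which interferon gamma induces, had 153, 157 and 90.3 CPM with complete smoke, 149, 159.7 and 117 CPM with filtered smoke and 140.03, 104 and 79.1 CPM in clean air in BEAS-2B. In A549 it had 146, 168 and 148 CPM with complete smoke, 158, 154 and 143 CPM with filtered smoke and 148, 143 and 138 CPM in clean air. Exposed and control libraries overlapped in both lines, at log2 fold changes of 0.31 ± 0.28 and 0.39 ± 0.28 in BEAS-2B and 0.11 ± 0.12 and 0.08 ± 0.12 in A549 (edgeR adjusted p = 0.39, 0.261, 0.52 and 0.606; 0.0252 for filtered smoke in BEAS-2B with the block).

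TARS1, the threonyl enzyme, had 240.4, 309.6 and 277 CPM with complete smoke, 216, 292 and 325 CPM with filtered smoke and 277, 265 and 250.4 CPM in clean air in BEAS-2B. In A549 it had 270.4, 280.1 and 215 CPM with complete smoke, 291, 267 and 239 CPM with filtered smoke and 264, 292 and 264 CPM in clean air. The groups overlapped in both lines, and its log2 fold changes stayed between -0.10 and 0.07. Its paralogue TARS3 had 2.81, 3.94 and 3.55 CPM with complete smoke, 2.38, 3.68 and 4.88 CPM with filtered smoke and 3.24, 4.29 and 3.62 CPM in clean air in BEAS-2B. In A549 it had 12.1, 13.7 and 12.5 CPM with complete smoke, 12.3, 11.7 and 14.6 CPM with filtered smoke and 11.8, 11.9 and 12.3 CPM in clean air, the higher level of the pair of lines. The TARS3 log2 fold changes stayed between -0.12 and 0.10, with SEs up to 0.28. Of the other cytosolic genes outside the complex, AARS1, CARS1, NARS1 and YARS1 (the alanyl, cysteinyl, asparaginyl and tyrosyl enzymes) passed in no comparison with clean air. Their values ranged from -0.33 (NARS1) to 0.55 (YARS1), both with filtered smoke in BEAS-2B. With the block, AARS1 (edgeR adjusted p = 0.00488) and YARS1 (edgeR adjusted p = 0.00642) were higher and NARS1 lower (edgeR adjusted p = 0.0434) with filtered smoke in BEAS-2B.

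Among mitochondrial enzymes, YARS2, CARS2, NARS2 and FARS2 were the ones that rose, and PARS2 and LARS2 the ones that fell, LARS2 only with all 9 libraries of its line in the fit. YARS2 (ENSG00000139131, chr12:32727490-32755902), the tyrosyl enzyme, averaged 53.9 ± 8.30 CPM with complete smoke, 55.5 ± 6.34 CPM with filtered smoke and 26.3 ± 4.25 CPM in clean air in BEAS-2B (SD, n = 3 each). Its log2 fold changes there were 1.04 ± 0.20 (edgeR adjusted p = 0.00549) and 1.08 ± 0.20 (edgeR adjusted p = 0.00487). In A549 they were 0.43 ± 0.24 and 0.58 ± 0.24, past the threshold only with the block (edgeR adjusted p = 0.172 and 0.0661, with the block 0.0482 and 0.0112).

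CARS2, the cysteinyl enzyme, had 83.1, 78.1 and 55.1 CPM with complete smoke, 92.6, 80.6 and 68.2 CPM with filtered smoke and 60.0, 38.5 and 35.1 CPM in clean air in BEAS-2B. Clean air 1 overlapped complete smoke 3, and the log2 fold change was 0.85 ± 0.26 with filtered smoke (edgeR adjusted p = 0.024) and 0.70 ± 0.26 with complete smoke (edgeR adjusted p = 0.0537). In A549 CARS2 had 54.6, 53.0 and 41.0 CPM with complete smoke, 62.0, 56.7 and 41.3 CPM with filtered smoke and 36.2, 36.6 and 33.2 CPM in clean air. The exposed libraries lay above the controls, at 0.59 ± 0.18 with filtered smoke (edgeR adjusted p = 0.023) and 0.49 ± 0.18 with complete smoke (edgeR adjusted p = 0.0608; 0.00679 with the block). NARS2, the asparaginyl enzyme, had 30.6, 28.2 and 25.95 CPM with complete smoke, 29.7, 31.4 and 30.2 CPM with filtered smoke and 18.9, 22.4 and 21.6 CPM in clean air in A549. No library overlapped, and the log2 fold changes were 0.43 ± 0.14 (edgeR adjusted p = 0.0374) and 0.54 ± 0.14 (edgeR adjusted p = 0.011). In BEAS-2B the NARS2 values of 0.46 ± 0.18 and 0.40 ± 0.18 did not pass (edgeR adjusted p = 0.0627 and 0.0869).

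PARS2, the prolyl enzyme, is a low transcript that had 5.53, 4.52 and 8.18 CPM with complete smoke, 2.63, 4.01 and 4.36 CPM with filtered smoke and 7.89, 6.41 and 8.74 CPM in clean air in A549. Filtered smoke libraries lay below all controls, at a log2 fold change of -1.05 ± 0.27 (edgeR adjusted p = 0.0123), and complete smoke overlapped them at -0.34 ± 0.26 (edgeR adjusted p = 0.338). In BEAS-2B PARS2 stood at -0.63 ± 0.31 and -0.63 ± 0.31 (edgeR adjusted p = 0.123 and 0.112; 0.00525 for filtered smoke with the block). LARS2, the leucyl enzyme, had 28.5, 27.2 and 23.0 CPM with complete smoke, 29.9, 29.5 and 30.4 CPM with filtered smoke and 36.8, 36.9 and 33.4 CPM in clean air in BEAS-2B. All exposed libraries lay below the controls, and the complete smoke log2 fold change of -0.45 ± 0.16 passed narrowly (edgeR adjusted p = 0.0499) and in 0 of the 9 fits that leave out a single library (highest edgeR adjusted p = 0.142), while -0.26 ± 0.16 with filtered smoke did not (edgeR adjusted p = 0.203). The other 8 mitochondrial genes, AARS2, EARS2, HARS2, IARS2, MARS2, RARS2, TARS2 and WARS2, passed in no comparison with clean air. Their log2 fold changes lay between -0.32 (MARS2, A549 filtered) and 0.47 (TARS2, BEAS-2B filtered). With the block, TARS2 and RARS2 (the threonyl and arginyl enzymes) and NARS2 were higher with filtered smoke in BEAS-2B (edgeR adjusted p = 0.015, 0.0323 and 0.0192).

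Ratios between partners for the same amino acid differed between smoke and clean air in either direction. Per kb of exon, CARS1 over CARS2 was 0.870 (complete), 0.965 (filtered) and 1.39 (clean air) in A549, and 0.782, 0.773 and 1.10 in BEAS-2B. MARS1 over MARS2 was higher with smoke in BEAS-2B, at 14.3 (complete), 16.0048 (filtered) and 6.68 (clean air). NARS1 over NARS2 was 5.77, 5.68 and 9.42 in the same BEAS-2B groups. These are ratios of group means, with no test.

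Summed over members, the cytosolic genes made 4001, 4103 and 3290.5 CPM with complete smoke, 3959.7, 4067 and 3925 CPM with filtered smoke and 3099, 2661 and 2517 CPM in clean air in BEAS-2B. Without the TMM factors, complete smoke lay below clean air and filtered smoke overlapped it: 2870.2, 3523 and 3286 CPM (complete), 2975, 3583 and 3733 CPM (filtered) and 3543, 3934 and 3825 CPM (clean air). Scaling by library size alone moved the median log2 fold change of all genes by -0.68 and -0.68 in BEAS-2B (complete, filtered) and by -0.12 and -0.16 in A549. The members' median then stood at -0.38 and -0.29 in BEAS-2B, and the BEAS-2B calls became 2 higher and 1 lower cytosolic with 0 higher and 6 lower mitochondrial genes for complete smoke, and 3 and 2 with 1 and 4 for filtered smoke. Of all genes, 9.36% then rose and 41.8% fell with complete smoke in BEAS-2B, and 10.2% rose and 45.3% fell with filtered smoke. In A549 the calls became 3 and 0 with 0 and 1 for complete smoke, where 10.4% of all genes rose and 19.6% fell, and 3 and 2 with 0 and 2 for filtered smoke, where 17% rose and 27.9% fell. Relative to the median of all genes, the members' median was 0.37 and 0.44 higher in BEAS-2B and 0.06 and 0.07 higher in A549 with TMM, and 0.37, 0.45, 0.06 and 0.07 with library size alone. None of the 33 called values changed sign under library size alone, DESeq2 size factors or upper-quartile scaling. The ratio of the cytosolic to the mitochondrial sum, which no scaling touches, was 7.61, 7.83 and 6.94 with complete smoke, 7.49, 7.63 and 7.09 with filtered smoke and 6.62, 6.43 and 6.27 in clean air in BEAS-2B, with all exposed libraries above the controls. In A549 it was 5.13, 5.17 and 4.85, 5.33, 5.13 and 4.80 and 5.21, 5.35 and 5.22 in the same order, where complete smoke lay below the controls and filtered smoke overlapped them.

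**Figure D4:**
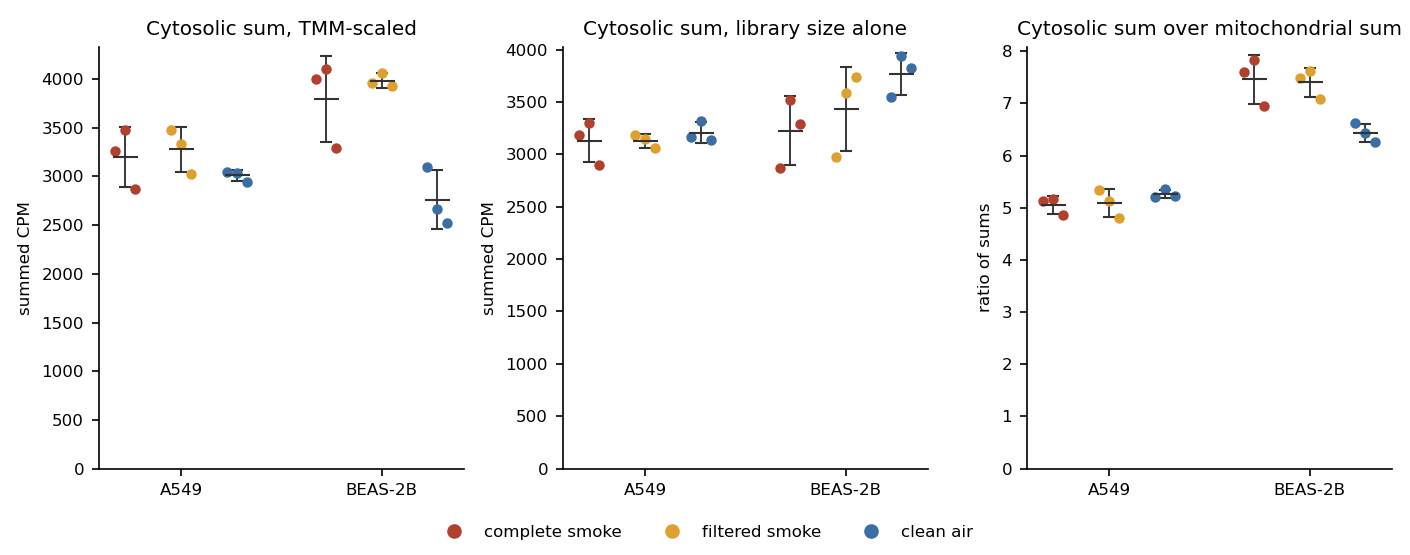
Summed CPM of the 20 cytosolic genes with TMM scaling (left) and by library size alone (middle), and the ratio of the cytosolic to the mitochondrial sum (right); points are libraries, bars mean and SD, with complete smoke, filtered smoke and clean air from left to right in each line. Exposed BEAS-2B libraries lie above clean air at left and right; in the middle complete smoke lies below clean air and filtered smoke overlaps it.

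Complete and filtered smoke were not told apart in this family. None of 34 members passed in either line, against 0% of all genes in A549 and 0% in BEAS-2B (edgeR adjusted p, lowest 0.998 over all A549 genes). At an unadjusted p under 0.05 stood 2 members in A549 and 0 in BEAS-2B, beside 236 and 222 of all genes. The 2 in A549 were PARS2, with a log2 difference of complete minus filtered of 0.72 ± 0.28, and MARS2, with 0.38 ± 0.15. The DESeq2 Wald test and limma-voom also called 0 members. The median difference over members was -0.05 in A549 and -0.07 in BEAS-2B, beside -0.0024 and 0.02 over all genes. SEs of single members ran from 0.12 to 0.31 in A549 and from 0.16 to 0.38 in BEAS-2B. For the genes with the highest smoke responses the differences were small beside these errors, -0.08 ± 0.38 for FARSA, -0.05 ± 0.23 for KARS1 and 0.02 ± 0.16 for FARSB in BEAS-2B.

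**Figure D5:**
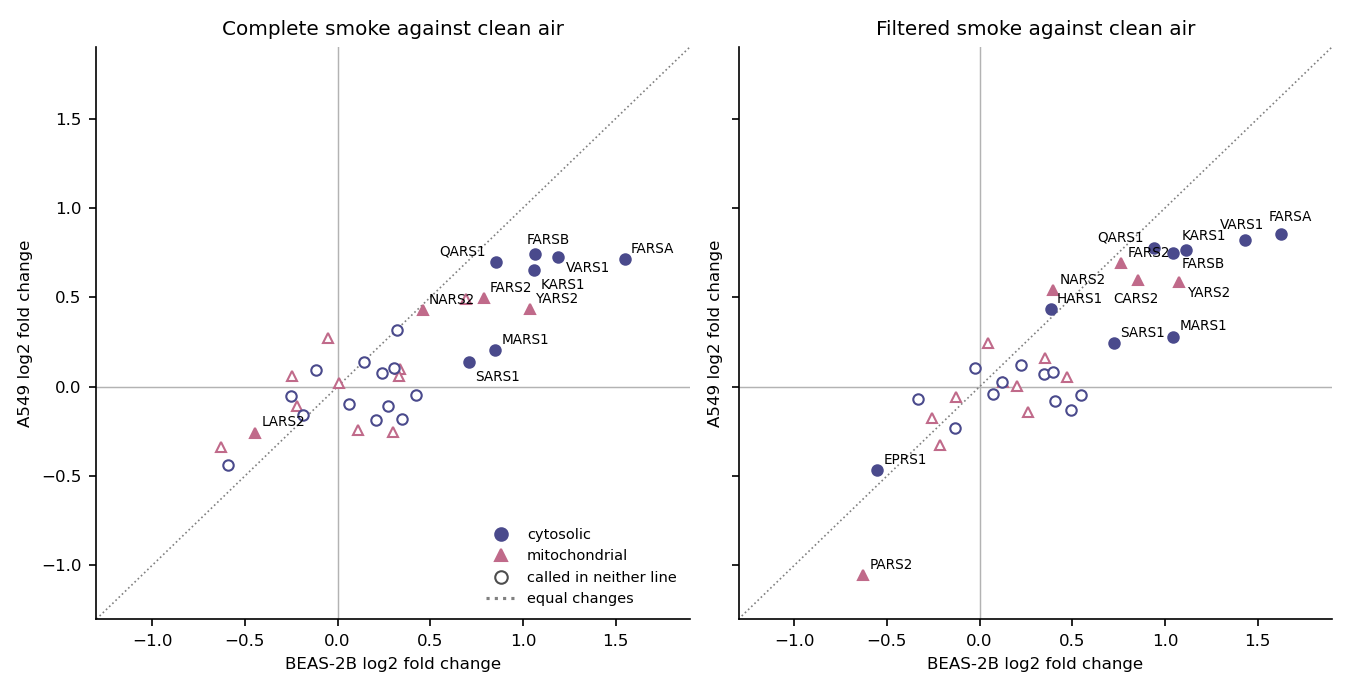
Log2 fold change against clean air in BEAS-2B (horizontal axis) and A549 (vertical axis) for 34 members, with complete smoke at left and filtered smoke at right; named, filled points passed in at least 1 line and the dotted line marks equal changes. FARSA, VARS1, KARS1, FARSB and QARS1 lie to the upper right in both panels, below the dotted line.

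The lines, which share no libraries, ranked the members alike. Across 34 genes, which share libraries and are not independent, Spearman's rho between the A549 and BEAS-2B log2 fold changes was 0.78 for complete and 0.80 for filtered smoke, beside 0.76 and 0.83 over 13927 genes. BEAS-2B had the change of larger size in 30 and 27 of 34 members. The same count over all genes is not given here, so this is not read as a trait of the family. The members' median SE was also larger in BEAS-2B, 0.22 against 0.15 in A549 with each smoke. The test of the difference itself, in a joint fit of all 18 libraries, passed for 0 of 34 members with either smoke, against 1.74% of 17703 genes for complete and 0.825% for filtered smoke. At an unadjusted p under 0.05 it held 3 members for complete and 3 for filtered smoke, and the DESeq2 Wald test and limma-voom called 0. No unadjusted count over all genes is given beside these members, so they are not read as a trait of the family. The response of BEAS-2B minus that of A549 was 0.86 ± 0.50 and 0.80 ± 0.50 for FARSA (complete, filtered; edgeR adjusted p = 0.391 and 0.49), 0.65 ± 0.26 and 0.78 ± 0.26 for MARS1 (edgeR adjusted p = 0.213 and 0.179) and 0.53 ± 0.25 and 0.64 ± 0.25 for AARS1 (edgeR adjusted p = 0.279 and 0.253). With the sample number as a block, the filtered smoke difference passed for 4 cytosolic genes, FARSA, MARS1, AARS1 and YARS1, all with the higher response in BEAS-2B (edgeR adjusted p = 0.0221, 0.00567, 0.018 and 0.0379), where 15.5% of all genes passed. Without BEAS-2B complete smoke 3 and clean air 1, left out after seeing the data, the difference passed for 6 members with complete and 1 with filtered smoke, where 21.5% and 5.16% of all genes passed. Line and culture medium cannot be told apart in these differences.

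Over all genes tested, smaller fold changes went with longer gene spans (Spearman's rho -0.45, -0.43, -0.31 and -0.33 in A549 complete and filtered and BEAS-2B complete and filtered smoke). Across the 34 members the same rho was -0.09, -0.02, -0.01 and -0.07. Higher fold changes also went with a higher GC content over all genes (rho 0.30, 0.34, 0.25 and 0.35 in the same order) and, in BEAS-2B, across the members as well (0.12, 0.17, 0.31 and 0.42). With filtered smoke in BEAS-2B the median GC content was 53.1% over the 10 members that rose and 47.6% over those that did not pass. With exonic length, rho was -0.48, -0.49, -0.40 and -0.40 over all genes and -0.13, -0.10, -0.09 and -0.04 across members. The part of these properties in single members' changes was not tested beyond the offsets for GC content and length.

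Genes of the amino acid response moved in both directions in both lines. Of 32 ATF4 and amino acid response genes, 7 rose and 7 fell with complete smoke in A549, 8 and 8 with filtered smoke, 5 and 2 with complete smoke in BEAS-2B and 9 and 3 with filtered smoke. Over all genes, 15.6% rose and 16.9% fell, then 23.1% and 23.5%, in A549, and 21.5% and 19.5%, then 23.6% and 24.9%, in BEAS-2B. With the block the list's counts were 12 and 10 and 12 and 10 in A549 and 13 and 8 with filtered smoke in BEAS-2B. There 27.3% of all genes rose and 27.3% fell, then 30.4% and 31.3%, in A549, and 31.9% and 35% in BEAS-2B. ATF4 itself rose by 0.75 ± 0.16 and 0.96 ± 0.16 in A549 (edgeR adjusted p = 0.00964 and 0.00231) and by 1.14 ± 0.40 with filtered smoke in BEAS-2B (edgeR adjusted p = 0.0401), and stood at 1.10 ± 0.40 with complete smoke there (edgeR adjusted p = 0.0502). The stress genes ATF3, DDIT3 and PPP1R15A rose in all 4 comparisons, at 2.72, 1.66 and 2.65 with complete smoke in A549 and 2.07, 1.63 and 1.21 with complete smoke in BEAS-2B. ASNS, the asparagine synthetase, passed in no comparison and had at most 0.668 CPM in BEAS-2B. In the annotation it lies wholly inside AC079781.5 on the same strand, and the part of that overlap was not tested. The cystine transporter SLC7A11 fell in A549 by 1.79 and 2.29 on the log2 scale. In BEAS-2B it had 2.18, 9.85 and 9.21 CPM with complete smoke, 2.04, 8.90 and 16.7 CPM with filtered smoke and 14.5, 33.7 and 32.8 CPM in clean air. Filtered smoke 3 lay above clean air 1 there, and with the block the filtered smoke value was -1.84 (edgeR adjusted p = 0.000242). A list of 8 genes around GCN2 also held EIF2AK1, EIF2AK2 and EIF2AK3, which encode other kinases than GCN2. Of these 8 genes, 2 rose and 3 fell with each smoke in A549. In BEAS-2B 1 rose and 3 fell with complete smoke, and 2 and 2 with filtered smoke. The shares of all genes given above apply to these counts too. EIF2AK4, which encodes GCN2, stood at -0.51 ± 0.16 and -0.59 ± 0.16 in A549 (edgeR adjusted p = 0.0392 and 0.0163). With filtered smoke in BEAS-2B it stood at -0.33 with the block and did not pass (edgeR adjusted p = 0.0593). EIF2AK1, EIF2AK2 and EIF2AK3 were lower in that fit, at -0.34, -1.39 and -1.56 (edgeR adjusted p = 0.0389, 0.000216 and 1.61e-05).

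Interferon-gamma response genes, set beside WARS1, gave 4 higher and 0 lower of 9 tested with each smoke in A549, and 5 and 1 of 10 in BEAS-2B. For this and the next lists, 15.6%, 23.1%, 21.5% and 23.6% of all genes rose and 16.9%, 23.5%, 19.5% and 24.9% fell. The order is A549 complete, A549 filtered, BEAS-2B complete and BEAS-2B filtered smoke. TAP1, a peptide transporter, rose by 1.46 ± 0.25 and 1.63 ± 0.25 in BEAS-2B (edgeR adjusted p = 0.00418 and 0.00337), where WARS1 did not pass without the block. For mitochondrial transfer RNA, MTFMT, which formylates the initiator methionine, rose in BEAS-2B by 0.80 ± 0.22 and 0.97 ± 0.22 (edgeR adjusted p = 0.019 and 0.00921), 1 of the 4 genes in its list. With the block, GATB was added with filtered smoke (edgeR adjusted p = 0.00491). GATB, of the enzyme that makes mitochondrial glutaminyl-tRNA, rose with filtered smoke in A549 by 0.56 ± 0.17 (edgeR adjusted p = 0.0233) and stood at 0.45 ± 0.17 with complete smoke there (edgeR adjusted p = 0.0689; 0.0356 with the block). Of 11 genes for mitochondrial transfer RNA maturation, 0 rose and 1 fell with complete and 2 rose and 1 fell with filtered smoke in A549, and 1 and 0, then 1 and 1, did so in BEAS-2B. With the block, 3 and 1 did so with each smoke in A549 and 4 and 1 with filtered smoke in BEAS-2B. By class of fold, 1, 2, 4 and 5 of 17 class I genes and 3, 5, 5 and 5 of 16 class II genes rose in A549 complete, A549 filtered, BEAS-2B complete and BEAS-2B filtered smoke (with the block 4, 4 and 8 of 17 and 5, 6 and 10 of 16 in the comparisons other than BEAS-2B complete), EPRS1 holding a domain of each class. With the block, 27.3%, 30.4% and 31.9% of all genes rose in the same comparisons.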

How the data were processed

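RNA-seq of 18 libraries was analysed from the deposited tables of gene counts, 1 per library. Per the labels' protocols, RNA was taken up in Trizol and prepared with the TruSeq mRNA kit; per the submitters' processing notes, reads were aligned with STAR 2.7.10b to GRCh38. The deposited counts come in 3 columns a library, ignoring strand and for each strand. The last of them was used, since its total exceeded that of the other strand 11.7 to 17.1 times in the 18 libraries, though no label states a stranded kit. Summary rows (unmapped, multimapping, no feature, ambiguous) stayed out of library sizes. Multimapping reads were 7.69 to 31.7% of all reads, unmapped ones included. Reads on no feature were 1.09 to 12.6% of uniquely mapped reads. Counting error is small at 14438397 to 55032499 gene counts a library.

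Within each line, 9 libraries were fitted together with edgeR 4.0.16 (R 4.3.3; quasi-likelihood F-test, robust, filterByExpr, TMM), with Benjamini-Hochberg adjustment over 15244 genes in A549 and 16356 in BEAS-2B and a threshold of 0.05; differences between lines came from a joint fit of 18 libraries and 17703 genes. Names came from GENCODE and RefSeq tables by gene ID. Same-numbered libraries share a number in the labels. Their deviations from group means correlated at 0.220 to 0.798 over all 9 pairs in A549 and at -0.134 to 0.666 in BEAS-2B, where the pair of complete smoke and clean air library 2 fell under 0.1; the block stands beside the other comparisons. The pair of filtered smoke and clean air library 2 in BEAS-2B reached only 0.159, so the block is weakly founded there as well. The members and lists were chosen with earlier results of these data known. Values per library are given for the 3 highest and 3 lowest passing members of each comparison and for a few members chosen by role. On simulated data, the test recovered 43.9% of genes changed 2-fold and 88.8% of those changed 4-fold in the comparison of complete smoke with clean air in A549 (200 changed genes, 14999 genes in that step). Alternatives were DESeq2 1.42.0, limma 3.58.1, other scalings and filters, offsets for GC content and length (mgcv 1.9.3), a replicate block, unstranded counts and leaving out each library. Motifs and levels were computed in pandas 2.3.3 with numpy 2.4.6.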

Additional observations from a re-analysis of the deposited data

Results flagged for a closer look

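Reads on the strand opposite to MARS1, where the annotation has DDIT3 and ARHGAP9, are outside the main measurement and stood above their clean air level with smoke in both lines. In A549 they averaged 29.2 CPM with complete smoke and 38.9 CPM with filtered smoke, against 9.14 ± 2.49 CPM in clean air (SD, n = 3). In BEAS-2B they averaged 36.9 CPM with complete smoke and 39.0 CPM with filtered smoke, against 9.64 ± 4.87 CPM in clean air (SD, n = 3). With counts that ignore strand, the MARS1 count was lower than with its own strand alone in every library. It was 2851 against 2918 in A549 complete smoke 1 and 10874 against 11318 in BEAS-2B complete smoke 1. On balance these reads did not raise the MARS1 count.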

How the results depend on the processing

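Counts below are members that passed, higher and lower together. The share of all genes that passed also changes with the setting, and for most alternatives it is not given here. A higher count is therefore not read as a trait of the family. With TMM and edgeR the counts were 3, 6, 7 and 7 cytosolic and 1, 3, 3 and 3 mitochondrial members in A549 complete, A549 filtered, BEAS-2B complete and BEAS-2B filtered smoke, in that order throughout, and 0 in both differences between lines. Of 299 counts under alternatives, 203 stayed within 1.5 times. The DESeq2 Wald test gave 2, 5, 6 and 5 mitochondrial members. Scaling by library size alone gave 3 cytosolic members in BEAS-2B complete smoke, and 6 and 5 mitochondrial ones in BEAS-2B; HARS2 turned to -0.66 with complete smoke in BEAS-2B (edgeR adjusted p = 0.0455), against 0.01 with TMM, beside the shift of -0.68 in the median of all genes. Upper-quartile scaling gave 2 mitochondrial members in A549 complete smoke. Without a filter on low counts, A549 complete smoke had 5 cytosolic and 0 mitochondrial members, A549 filtered smoke 5 mitochondrial and BEAS-2B complete smoke 1 mitochondrial. Fitting only the libraries compared gave 6 cytosolic and 2 mitochondrial members in A549 complete smoke and 1 mitochondrial in BEAS-2B complete smoke. Offsets for GC content and length gave 5 cytosolic members in A549 complete and 13 in BEAS-2B filtered smoke, and 2, 5, 5 and 5 mitochondrial ones. Gene span added to these offsets, chosen after seeing the data, gave 11 and 13 cytosolic members in BEAS-2B and 3, 6, 6 and 7 mitochondrial ones. Without BEAS-2B complete smoke 3 and clean air 1, also chosen after seeing the data, 12 and 13 cytosolic and 4 and 5 mitochondrial members passed in BEAS-2B, and 6 and 1 in the differences between lines. The cause of these changes was not tested.

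With the replicate block, 7 cytosolic members passed in A549 complete and 14 in BEAS-2B filtered smoke, 3, 5, 7 and 7 mitochondrial ones passed, and 5 (complete) and 4 (filtered) in the differences between lines. Of all genes, the block called 27.3% higher and 27.3% lower in A549 complete and 30.4% and 31.3% in A549 filtered smoke. It called 31.9% higher and 35% lower in BEAS-2B filtered smoke, and 15.5% in the filtered smoke difference between lines. BEAS-2B complete smoke is not taken as paired with clean air; the block gave 10 cytosolic members there. The replicate block with offsets for GC content and length gave 10, 10, 16 and 17 cytosolic, 5, 7, 8 and 10 mitochondrial, and 9 and 6 between lines. With gene span as well, the block gave 11, 11, 16 and 18 cytosolic, 6, 8, 7 and 9 mitochondrial, and 8 and 6 between lines.

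Leaving out each library in turn gave 1 to 6, 2 to 8, 2 to 9 and 5 to 10 cytosolic members, 0 to 3, 1 to 5, 1 to 3 and 1 to 4 mitochondrial ones, and 0 to 0 in complete against filtered smoke and between lines. For A549 complete smoke, 1 cytosolic member was left without complete 1, complete 2 or any clean air library, and 6 without complete 3 or filtered 3; mitochondrial members came to 0 without complete 1, complete 2, filtered 2 or any clean air library, 3 without complete 3 and 2 without filtered 3. For A549 filtered smoke, 2 cytosolic members were left without filtered 1, filtered 2, clean air 2 or clean air 3 and 3 without clean air 1; mitochondrial members came to 1 without clean air 1 and to 5 without complete 3 or filtered 3. For BEAS-2B complete smoke, 3 cytosolic members were left without complete 1, complete 2 or clean air 2 and 2 without clean air 3, and 1 mitochondrial member without any of these or without filtered 2. For BEAS-2B filtered smoke, 1 mitochondrial member was left without filtered 1, filtered 2, clean air 2 or clean air 3. Of 33 values of members that passed, 9 passed under every alternative run: KARS1 in A549 filtered and in both BEAS-2B comparisons, QARS1 in both A549 comparisons, PARS2 in A549 filtered, and FARSA, VARS1 and YARS2 in BEAS-2B filtered smoke. All 33 kept their direction under the alternatives run. Members near 1 to 10 CPM, such as TARS3 and PARS2, have the least counts behind them.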
